A study of Mus musculus with 6 samples.

Results

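The genes described here are those of the heat shock response and the unfolded protein response, the programs by which a cell adds chaperones when proteins misfold. Members were chosen by symbol: those that begin with Hsp and a further a, b, d, e, h or digit (heat shock proteins), those of the J proteins (Dnaja, Dnajb and Dnajc), the numbered Pdia genes (protein disulfide isomerases), and Ddit3, Atf4, Atf6, Xbp1, Ern1, Eif2ak3, Calr, Canx, Trib3 and Hsf1. The rule found 87 of the 19176 genes in the table, 83 of them averaging at least 10 normalized counts, and used no measured value. RNA was sequenced in 6 libraries from renal cortex of wild-type C57BL/6J male mice, young adults at surgery. In all groups the left renal pedicle had been clamped and released (unilateral ischemia-reperfusion injury, UIRI), and the opposite kidney was taken out a day before the end of the study. Mice of the UIRI group (3 libraries) received daily intraperitoneal vehicle (ethanol in saline), and those of the UIRI + BA group (3 libraries) received BA at 1 mg/kg. BA is Bruceine A in the methods of the study, a plant quassinoid, and is spelled Brucine A in the labels. Kidneys were taken on day 14. Both groups carry the injury, so the comparison is of BA against vehicle in injured cortex. Uninjured cortex was not analysed here.

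Misfolded proteins in the cytosol and nucleus release heat shock factor HSF1, which binds inverted repeats of GAA (heat shock elements, HSE) and drives Hsp70, Hsp90, Hsp110 and J protein genes. In the endoplasmic reticulum (ER), the chaperone Hspa5 (BiP) holds 3 sensors in check. They are Atf6, Ern1 (IRE1, which splices Xbp1 RNA) and Eif2ak3 (PERK, which raises translation of Atf4 and thereby Ddit3 and Trib3). Atf6 and Xbp1 act through the ER stress response element (ERSE) on ER chaperone genes. Proximal tubule cells make many secreted and membrane proteins, and these programs are known to respond to renal ischemia.

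The promoters are shown first because the 2 main arms differ in them by letters. Promoter sequences from RefSeq (GRCm38.p6) were found for 69 of the 87 members, and the 250 bases before each start were searched on both strands. ERSE was searched as CCAAT and CCACG with 9 bases between them. It stood in 6 of 69 members (8.70%), against 35 of 27025 genes in the whole promoter table (0.130%). All 6, Calr, Canx, Dnajc3, Hsp90b1, Hspa5 and Pdia6, are among the 11 ATF6 and XBP1 targets with a promoter. In the 4 printed next, the match is in capitals, on whichever strand it was read.
Hspa5 (chr2:34771840-34772089, plus strand): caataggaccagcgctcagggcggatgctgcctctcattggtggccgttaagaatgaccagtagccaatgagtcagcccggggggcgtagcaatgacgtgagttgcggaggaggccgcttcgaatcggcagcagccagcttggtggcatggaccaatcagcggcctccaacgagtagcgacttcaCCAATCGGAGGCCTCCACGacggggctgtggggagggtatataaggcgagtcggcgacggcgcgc
Hsp90b1 (chr10:86705445-86705694, minus strand): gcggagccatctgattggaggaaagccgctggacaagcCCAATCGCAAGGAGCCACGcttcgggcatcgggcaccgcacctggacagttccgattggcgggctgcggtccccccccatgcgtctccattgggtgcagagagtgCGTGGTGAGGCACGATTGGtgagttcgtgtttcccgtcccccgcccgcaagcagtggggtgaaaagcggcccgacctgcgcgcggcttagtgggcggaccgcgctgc
Calr (chr8:84846932-84847181, minus strand): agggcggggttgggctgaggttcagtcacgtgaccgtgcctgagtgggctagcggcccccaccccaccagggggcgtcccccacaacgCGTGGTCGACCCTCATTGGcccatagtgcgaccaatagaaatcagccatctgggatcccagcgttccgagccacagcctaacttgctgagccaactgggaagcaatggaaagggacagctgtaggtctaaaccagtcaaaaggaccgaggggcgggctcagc
Pdia6 (chr12:17266339-17266588, plus strand): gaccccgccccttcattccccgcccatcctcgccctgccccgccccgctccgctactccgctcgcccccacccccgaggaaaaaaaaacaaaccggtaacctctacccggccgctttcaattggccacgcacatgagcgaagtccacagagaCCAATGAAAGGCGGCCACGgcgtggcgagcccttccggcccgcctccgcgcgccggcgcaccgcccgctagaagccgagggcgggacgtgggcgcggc
The match ended 46 bases before the start in Hspa5 and 143 before it in Calr, and Hsp90b1 held a pair of matches, at 193 and 88 bases. An HSE core was searched as GAA and TTC with 2 bases between them. It stood in 10 of 69 members (14.5%) against 7.73% of all genes, and in 6 of the 8 HSF1 targets with a promoter. The other 2, Hsph1 (log2 fold change 0.62) and Dnajb1 (0.33), held no match, while Hspe1 (0.11) and Hspb1 (0.14), which did, had the smallest values of the HSF1 targets. A longer form with 3 units, which contains the short one, stood in Dnajb6, Hspd1 and Hspe1 (4.35% of members) against 0.514% of all genes. The following show the short form for Hspa1b, Dnaja1 and Hspb1, and the long form for Hspd1, in capitals.
Hspa1b (chr17:34959239-34959488, minus strand): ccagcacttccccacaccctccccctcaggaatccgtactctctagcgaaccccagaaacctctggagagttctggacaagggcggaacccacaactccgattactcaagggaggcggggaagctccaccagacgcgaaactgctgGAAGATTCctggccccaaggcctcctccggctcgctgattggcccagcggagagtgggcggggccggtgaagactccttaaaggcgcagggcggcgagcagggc
Dnaja1 (chr4:40722218-40722467, plus strand): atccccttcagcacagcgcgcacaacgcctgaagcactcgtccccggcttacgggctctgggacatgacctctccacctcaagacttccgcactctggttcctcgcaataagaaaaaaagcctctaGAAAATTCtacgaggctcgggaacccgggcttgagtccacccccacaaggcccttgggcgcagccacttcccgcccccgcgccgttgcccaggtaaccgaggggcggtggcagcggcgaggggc
Hspb1 (chr5:135887669-135887918, plus strand): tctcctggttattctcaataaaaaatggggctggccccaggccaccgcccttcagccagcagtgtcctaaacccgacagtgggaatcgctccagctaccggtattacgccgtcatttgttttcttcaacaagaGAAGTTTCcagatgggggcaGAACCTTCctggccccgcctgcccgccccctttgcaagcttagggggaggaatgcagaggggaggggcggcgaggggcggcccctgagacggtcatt
Hspd1 (chr1:55087933-55088182, minus strand): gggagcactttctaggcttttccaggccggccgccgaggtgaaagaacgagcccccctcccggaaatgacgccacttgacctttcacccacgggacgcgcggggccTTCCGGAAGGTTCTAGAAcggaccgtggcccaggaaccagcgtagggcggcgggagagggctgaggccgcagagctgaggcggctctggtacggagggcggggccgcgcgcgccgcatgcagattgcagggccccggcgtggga
Hspd1 and Hspe1 lie head to head on chromosome 1, and their windows hold the same element on opposite strands. The Hspa1a window differs from that of Hspa1b at 3 of 250 positions. CCACG alone, which every ERSE match contains, stood in 52.2% of members and 31.0% of all genes. No member but Dnajc25 held the XBP1 element TGACGTGG, and none but Hspa14 held the ATF4 element searched as TGATG and AA with 1 base between them. Members with an ERSE match (6) had a median log2 fold change of 0.20, and those without (63) had 0.087. For the short HSE the medians were 0.22 (10 members) and 0.090 (59). For the long HSE they were 0.11 (3) and 0.097 (66), and for CCACG alone 0.11 (36) and 0.087 (33). The medians were not compared by a test, and the matches are of letters, not measured binding.

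Libraries held 18683621, 18684293 and 38124164 reads on genes in the UIRI group, in replicate order, against 16510720, 19725912 and 20313529 with BA. Values by library are normalized counts in replicate order, that is, reads divided by 1 size factor per library, and fold changes are on the log2(normalized count + 1) scale of UIRI + BA minus UIRI. Members took 1.01%, 0.995% and 1.11% of reads in UIRI, against 1.29%, 1.11% and 1.14% with BA. The third UIRI library lay just above the second UIRI + BA library in that share. A pair of libraries stood apart. UIRI replicate 3, the deepest, lay nearer to the UIRI + BA mean than to the other UIRI libraries in 57 of 83 members (68.7%). The share was 67.9% of the 17249 genes that likewise averaged at least 10 normalized counts. UIRI + BA replicate 1 was the highest library in 39 of the 87 members. That count was not taken over all genes, so it cannot tell whether this library was high in these genes or in genes at large. Results are therefore given also without each of them. UIRI replicate 3 was picked out for lying near the UIRI + BA mean, so leaving it out favours group differences in genes at large. P-values from fits without it are therefore no separate support for a member. Cortex markers were present, and 16 of 16 proximal tubule markers were higher with BA, 13 of them at an unadjusted p below 0.05 (median log2 fold change 0.71). Their summed normalized count was 64562 to 85082 in UIRI, against 91815 to 149348 with BA. All 9 fibroblast and myofibroblast markers were lower, 5 of them at an unadjusted p below 0.05 (median -0.32, summed 110748 to 128869 against 80578 to 102831). All 7 macrophage markers were lower, with 0 past an unadjusted p of 0.05. All 8 urothelium markers were lower too, 1 of them past it (median -1.77), with Upk2 and Upk3a at 0 in at least 1 library. Their list means spread widely within each group, from -0.64 to 1.12 in UIRI and from -2.57 to 0.38 with BA. Injured tubule markers were mixed, 5 higher (3 past it) and 3 lower (2 past it). All 6 collecting duct markers were higher, 0 of them past it. The part of these markers in the members' differences was not tested, and in bulk tissue fewer cells of a type and less RNA per cell cannot be told apart.

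Most chaperone genes had a slightly higher mean level with BA, and none passed the adjusted test. Of the 87 members, 61 had a positive log2 fold change (70.1%, against 48.9% of all genes), and the median was 0.10 against -0.005 over all genes. By limma, 0 of 87 members and 0 of 19176 genes (0%) had an adjusted p below 0.05. At an unadjusted p below 0.05 there were 17 members, 19.5% of them, against 10.3% of all genes. Of these, 15 were higher with BA (17.2% of members, against 5.67% of all genes) and 2, Dnajc9 and Trib3, were lower (2.30%, against 4.61%). Trib3 did not have an unadjusted p below 0.05 by DESeq2, edgeR, quantile normalization or the replicate block. The 3 values of one group lay wholly above the other in 18 members (20.7%, against 14.4% of all genes), 17 of them higher with BA (19.5%, against 7.45% of all genes). DESeq2 on the recovered reads called 2 members, Dnajc22 and Hspa8, at an adjusted p below 0.05, against 1.11% of all genes, and left 4 members without an adjusted p. The edgeR test called 0 members, with 15 of 83 at an unadjusted p below 0.05 (9.93% of all genes tested). Members' effects were small: in the 17, log2 fold changes had sizes of 0.22 to 0.62. The counts depended on single libraries. Without UIRI replicate 3, 9 members had an adjusted p below 0.05 (10.3%, against 5.02% of all genes) and 32 had an unadjusted one (36.8%, against 25.2% of all genes). Without UIRI + BA replicate 1, 5 members had an unadjusted p below 0.05 (5.75%), a share below the 6.62% of all genes. Without UIRI replicate 1 or 2 the counts were 8 (9.20%, against 4.21% of all genes) and 7 (8.05%, against 6.98%).

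**Figure D1:**
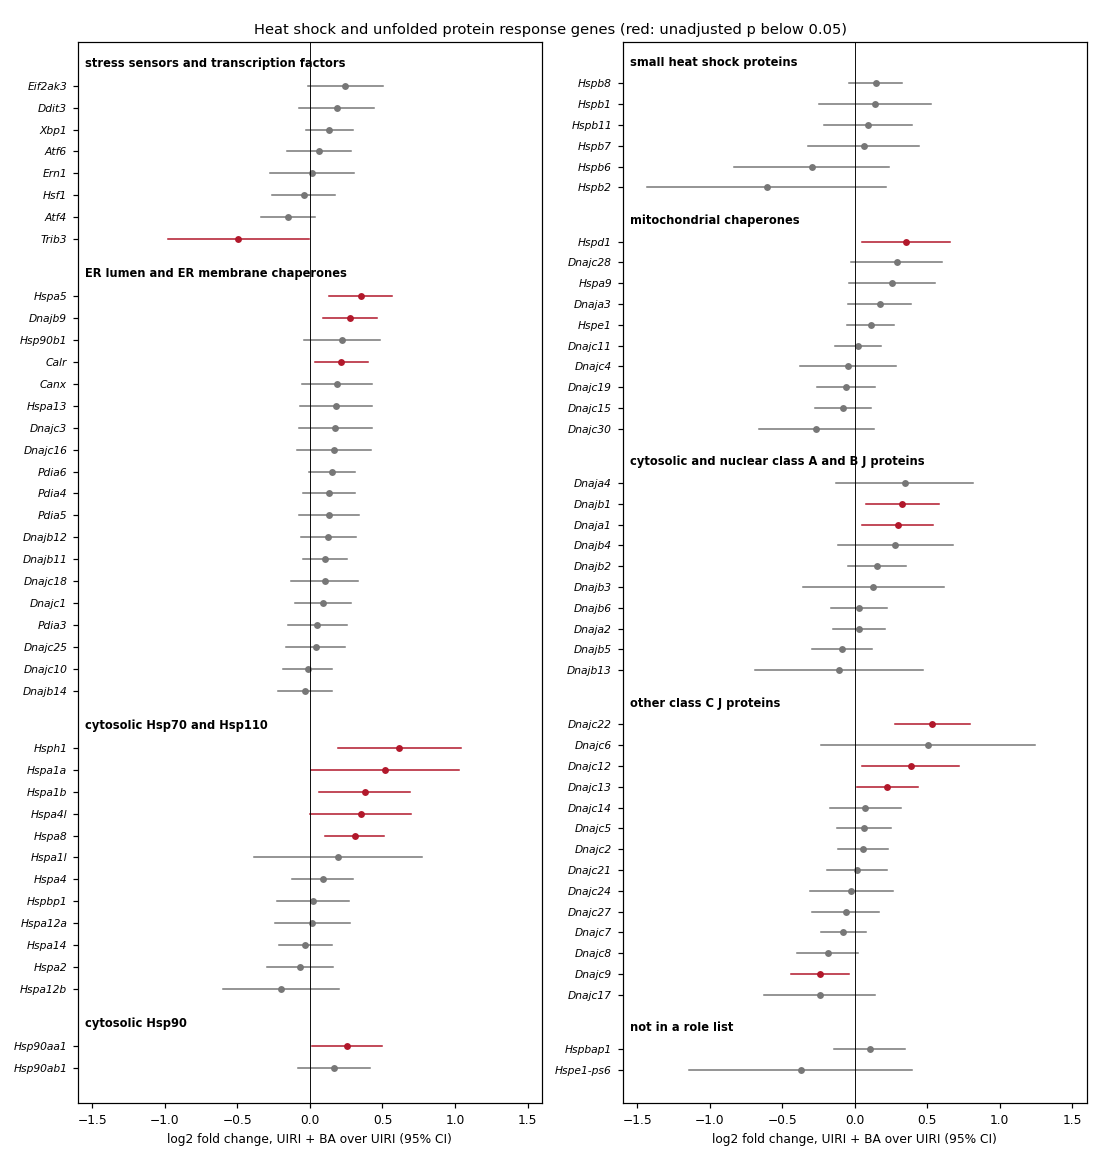
Log2 fold change of UIRI + BA over UIRI with its 95% confidence interval from limma (x axis) for each of the 83 members averaging at least 10 normalized counts, grouped by role; red marks an unadjusted p below 0.05. Most points lie right of 0, the 15 red points to the right are mainly ER chaperones, Hsp70 and Hsp110 genes and J proteins, and Dnajc9 and Trib3 are the red points to the left.

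By level per kilobase of exon, the scale on which genes can be compared, Hsp90ab1 led with 7976 normalized counts per kilobase over all libraries, followed by Hspa8 with 7111. Both are constitutive cytosolic chaperones. The ER chaperones Pdia3 (4766), Calr (4757) and Hspa5 (3175) came next. The stress-inducible pair Hspa1b (336) and Hspa1a (86.7) lay well below these. Trib3 had 27.7. The 4 members with a mean normalized count under 10 are only counted here.

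The HSF1 targets had the highest median of the 3 response lists. All 11 measured genes of this list had a positive log2 fold change, and 8 had an unadjusted p below 0.05 (higher with BA in 5.67% of all genes), none in the lower direction. The median was 0.31. Without UIRI replicate 3 it was 0.34 with 8 such genes, against 13.7% of all genes. Without UIRI + BA replicate 1 it was 0.22 with 2, against 3.9%. UIRI + BA replicate 1 was the highest library in 9 of the 11 genes. The list was chosen with earlier results of these data known and holds only genes that the symbol rule takes in. Of the 26 partner genes described below with the co-chaperones, 17 had positive values, 4 of them at an unadjusted p below 0.05. Those 4 were Fkbp5 (log2 fold change 0.37), Trap1 (0.21), Chordc1 (0.27) and Fkbp4 (0.17). Chordc1 and Fkbp4 were named after their values were seen. Among the rest of the 26, Bag3 had a log2 fold change of 0.01, Ahsa1 of 0.09, Stip1 of 0.16, Ahsa2 of 0.31 and Cryab of -0.11.

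Hsph1 encodes Hsp110, the nucleotide exchange factor that lets Hsp70 release its client, and it had the largest positive fold change of the list. It measured 1509, 1441 and 2134 normalized counts in the vehicle libraries, in replicate order, against 3369, 2183 and 2280.0 with BA. The groups did not overlap, but UIRI replicate 3 lay just below the lowest UIRI + BA library, and UIRI + BA replicate 1 stood well above all others. Means were 1695 ± 382 against 2611 ± 658 (SD, n = 3). The log2 fold change was 0.62 ± 0.19 (SE; 95% CI 0.19 to 1.04), with an adjusted p = 0.358 by limma. It was 0.80 without UIRI replicate 3 (limma adjusted p = 0.0313) and 0.42 without UIRI + BA replicate 1. In the fit without UIRI replicate 3, 5.02% of all genes had an adjusted p below 0.05.

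Hspa8, the constitutive Hsc70 (chr9:40800984-40810087, plus strand, GRCm38), measured 27040.2, 27263 and 27583 normalized counts in the vehicle libraries, in replicate order, against 36547, 32472 and 32591 with BA. The 3 UIRI libraries were close to each other and all below the 3 UIRI + BA libraries. Means were 27295 ± 273 against 33870.0 ± 2319 (SD, n = 3), and the log2 fold change was 0.31 ± 0.09 (SE; 95% CI 0.11 to 0.51) with an adjusted p = 0.340 by limma and of 0.0355 by DESeq2. Of its transcript windows of 100 bases, 28.5% also stand in other genes, mostly the pseudogene Gm15459, so reads could be split between them.

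The inducible Hsp70 genes Hspa1a and Hspa1b, neighbours on chromosome 17, differed in level. Hspa1a had 235, 171 and 217 in UIRI against 432, 249.8 and 238 with BA, and Hspa1b had 837, 721 and 888 in UIRI against 1312, 928 and 968 with BA. In both, the groups did not overlap and UIRI + BA replicate 1 was far the highest. Log2 fold changes were 0.52 ± 0.23 SE and 0.38 ± 0.14 SE, with limma adjusted p-values of 0.484 and 0.440. Without UIRI + BA replicate 1 they were 0.24 and 0.22, and neither had an unadjusted p below 0.05. As 47.1% of the Hspa1a windows also stand in Hspa1b, single values are uncertain. Their sum ran from 892 to 1106 in UIRI and from 1178 to 1744 with BA (p = 0.1 by the exact permutation test, two-sided, the lowest value possible with 3 against 3).

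Dnajb1 and Dnaja1, the J proteins that hand clients to Hsp70 in the cytosol, also had groups that did not overlap. Dnajb1 had 934, 916 and 952 in UIRI against 1397, 1126 and 1025 with BA, with the UIRI libraries close to each other. Dnaja1 had 5687, 5739.7 and 6723 in UIRI against 8519, 6790.1 and 7022 with BA, and here the third UIRI library lay just under the second UIRI + BA library. The log2 fold changes were 0.33 ± 0.11 SE for Dnajb1 and 0.30 ± 0.11 SE for Dnaja1, with limma adjusted p-values of 0.404 and 0.437. Hsp90aa1, the inducible Hsp90, had 6887, 6914 and 8192 in UIRI against 9895, 8007 and 8342 with BA and a log2 fold change of 0.25 ± 0.11 SE, and its groups overlapped. Shared windows made up 38.0% of Hsp90aa1, 23.9% of Hspd1 and 16.6% of Dnaja1, so their counts are uncertain in the same way. Hsp90ab1, its constitutive partner, had 22224, 20487 and 24964 in UIRI against 28121, 23316 and 24403 with BA and overlapping groups (log2 fold change 0.16 ± 0.11 SE).

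Hspd1 and Hspe1 encode Hsp60 and Hsp10, the chaperonin of the mitochondrial matrix, and share the promoter shown above. Hspd1 had 3821, 3598 and 4931 in UIRI against 5855, 4501 and 5380.2 with BA. UIRI replicate 3 exceeded UIRI + BA replicate 2, so the groups overlapped, and the log2 fold change of 0.35 ± 0.14 SE had a limma adjusted p = 0.448. Hspe1 had 2541, 2338 and 2455 in UIRI against 2543, 2631 and 2746 with BA, with the groups barely apart and a log2 fold change of 0.11 ± 0.07 SE. Hspb1 encodes Hsp27, which holds unfolded proteins without ATP. It had 1779.8, 1981 and 1275 in UIRI against 1502, 2049 and 1952 with BA, and the groups overlapped across most of their range. Its log2 fold change was 0.14 with all libraries and -0.05 without UIRI replicate 3, and 44.0% of its windows also stand in other genes.

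**Figure D2:**
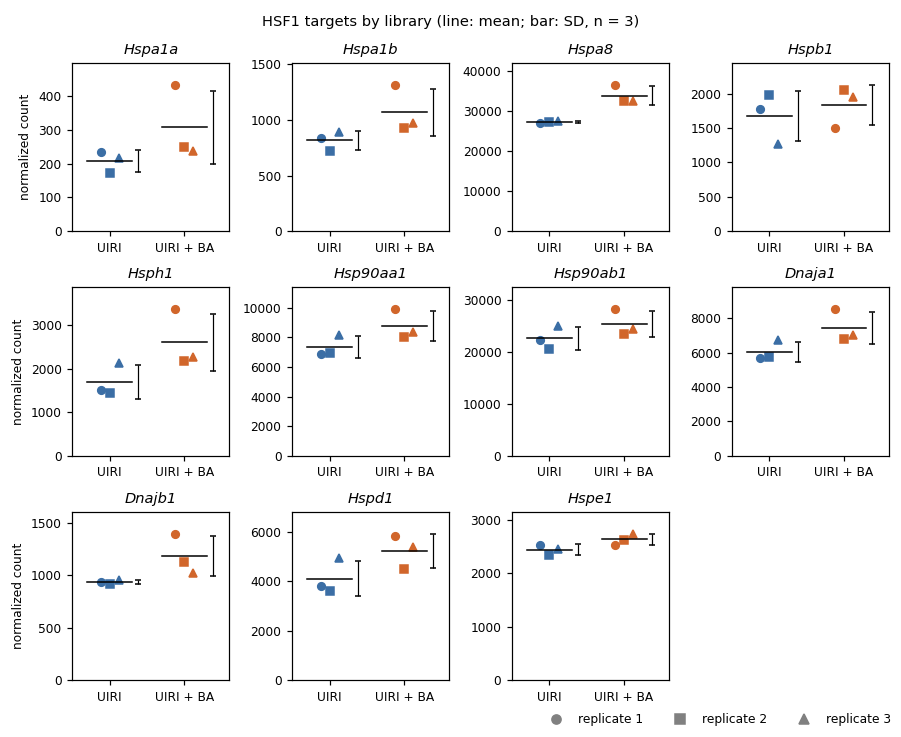
Normalized count (y axis, from 0) of each of the 11 HSF1 targets in the 3 UIRI and 3 UIRI + BA libraries, with the symbol showing the replicate number, a line at the mean and a bar for the SD. UIRI + BA replicate 1 (circle) is the highest point in 9 of the 11 panels, and UIRI replicate 3 (triangle) is near or among the UIRI + BA points in, among others, Hsph1, Hsp90aa1, Hsp90ab1, Hspd1 and Dnaja1.

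Other cytosolic Hsp70 relatives had overlapping groups. Hspa4l, a testis-enriched Hsp110 relative, had 938, 1071 and 1359 in UIRI against 1700.0, 1221 and 1362 with BA, with overlapping groups and a log2 fold change of 0.35 ± 0.15 SE (limma adjusted p = 0.486). Hspa12b, a distant Hsp70 of endothelial cells, had the largest negative value of the 12 cytosolic Hsp70 and Hsp110 genes, -0.20 ± 0.18 SE, from 244, 243 and 199 in UIRI against 183, 257 and 164 with BA. Over the 12, 9 fold changes were positive and 3 negative, against 48.9% positive over all genes. An unadjusted p below 0.05 was held by 5 of the positive ones (higher in 5.67% of all genes). Of these, Hspa1a, Hspa1b, Hspa8 and Hsph1 are HSF1 targets already counted above.

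In the ER, most targets of ATF6 and XBP1 had slightly higher means with BA. Of 12, 11 had a positive log2 fold change and 3, Hspa5, Dnajb9 and Calr, had an unadjusted p below 0.05 (higher in 5.67% of all genes), with a median of 0.18. Without UIRI replicate 3 the median was 0.24 with 9 such genes, against 13.7% of all genes. Without UIRI + BA replicate 1 it was 0.12 with 2 such genes, against 3.9% of all genes. The highest library was UIRI + BA replicate 1 in 11 of the 12 genes, and the lowest was UIRI replicate 2 in 10. The difference between this list and the HSF1 targets was not tested.

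Hspa5, the BiP chaperone that binds the sensors (chr2:34771970-34777547, plus strand, GRCm38), measured 11557, 11124 and 12700.4 normalized counts in the vehicle libraries, in replicate order, against 16626, 14833 and 13719.7 with BA. All 3 UIRI + BA libraries lay above all UIRI libraries. Means were 11794 ± 814 against 15059.5 ± 1467 (SD, n = 3). The log2 fold change was 0.35 ± 0.10 (SE; 95% CI 0.13 to 0.57), with an adjusted p = 0.312 by limma and 0.0429 without UIRI replicate 3. Without UIRI + BA replicate 1 it was 0.28. In the fit without UIRI replicate 3, 5.02% of all genes had an adjusted p below 0.05. Dnajb9 (ERdj4), a J protein that delivers clients to BiP and is a classical XBP1 target, had 1614, 1712 and 1909 in UIRI against 2145, 2137 and 2033 with BA. The groups did not overlap, and UIRI + BA replicate 1 lay only just above replicate 2 here. Its log2 fold change was 0.27 ± 0.08 (SE; 95% CI 0.09 to 0.46), with an adjusted p = 0.354 by limma. Calr, the lectin chaperone calreticulin (chr8:84841850-84846934, minus strand, GRCm38), had 12837, 12767 and 12385 in UIRI against 15697, 13946 and 14567 with BA. UIRI values were close together and lay below all UIRI + BA values, with a log2 fold change of 0.22 ± 0.08 SE and a limma adjusted p = 0.440.

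Further ER chaperones had an unadjusted p above 0.05. Hsp90b1 (Grp94), the Hsp90 of the ER, had 8817, 8434 and 10136 in UIRI against 12392, 9663 and 9972 with BA, with overlap through UIRI replicate 3 and a log2 fold change of 0.22 ± 0.11 SE. Canx, the membrane lectin chaperone calnexin, had 11024, 10376 and 13118 in UIRI against 14077, 12202 and 12878 with BA and overlapped for the same library (log2 fold change 0.19 ± 0.11 SE). Pdia6, a disulfide isomerase, did not overlap (4686, 4577 and 4768 in UIRI against 5436, 4975 and 5169 with BA, log2 fold change 0.15 ± 0.07 SE). Pdia3, the isomerase that works with Calr and Canx, had 14786, 13968 and 15279 in UIRI against 16630.0, 14088 and 15017 with BA and a log2 fold change of 0.05, which was -0.01 without UIRI + BA replicate 1. The 6 genes with an ERSE match had log2 fold changes of 0.15 to 0.35. Over all 20 ER lumen and ER membrane chaperones, 17 fold changes were positive and 3 negative. Of the negative ones Dnajb14, an ER membrane J protein, had a log2 fold change of -0.03.

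Of the 8 sensors and transcription factors, 5 had positive and 3 negative values. Xbp1, a target as well as an effector, had 4639, 4542 and 4551 in UIRI against 5140.0, 5215 and 4737 with BA. Its groups did not overlap, though the log2 fold change was 0.13 ± 0.07 SE and the unadjusted p was above 0.05. Counts per gene do not separate spliced from unspliced Xbp1 RNA, so IRE1 activity was not measured. Atf6 had 1514, 1519.6 and 1777 in UIRI against 1854, 1577 and 1585 with BA, Ern1 had 651, 759 and 777 in UIRI against 888, 673 and 662 with BA, and the groups overlapped in both (log2 fold changes 0.06 ± 0.10 SE and 0.01 ± 0.13 SE). Hsf1, whose activity is set mainly on the protein, had 741, 837 and 706 in UIRI against 723, 796 and 695 with BA and a log2 fold change of -0.04 ± 0.10 SE.

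The PERK and ATF4 arm had no common direction. Of its 4 genes, 2 had a positive and 2 a negative log2 fold change, with a median of 0.02. Eif2ak3 (PERK) had 1280.2, 1317 and 1726 in UIRI against 1651, 1651 and 1773 with BA, with UIRI replicate 3 inside the UIRI + BA range and a log2 fold change of 0.24 ± 0.12 SE. Without that library it was 0.38 with a limma adjusted p = 0.0249, in a fit where 5.02% of all genes had one below 0.05. Atf4, its main effector, had 3216, 3087 and 2724 in UIRI against 2802, 2685 and 2627 with BA and a log2 fold change of -0.15 ± 0.08 SE. Ddit3 (CHOP), which promotes cell death in lasting stress, had 407, 433 and 406 in UIRI against 491, 529.9 and 403 with BA, and the spread of the treated libraries covered the UIRI values (log2 fold change 0.18 ± 0.12 SE). Trib3, a pseudokinase induced by ATF4 and CHOP, was the member with the largest negative fold change among these 4. It had 69.1, 82.1 and 55.9 normalized counts in the vehicle libraries, in replicate order, against 40.1, 48.5 and 57.4 with BA. UIRI replicate 3 lay below UIRI + BA replicate 3, so the groups overlapped. The log2 fold change was -0.49 ± 0.21 (SE; 95% CI -0.98 to -0.01), with an adjusted p = 0.484 by limma, on 32 to 102 reads per library.

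**Figure D3:**
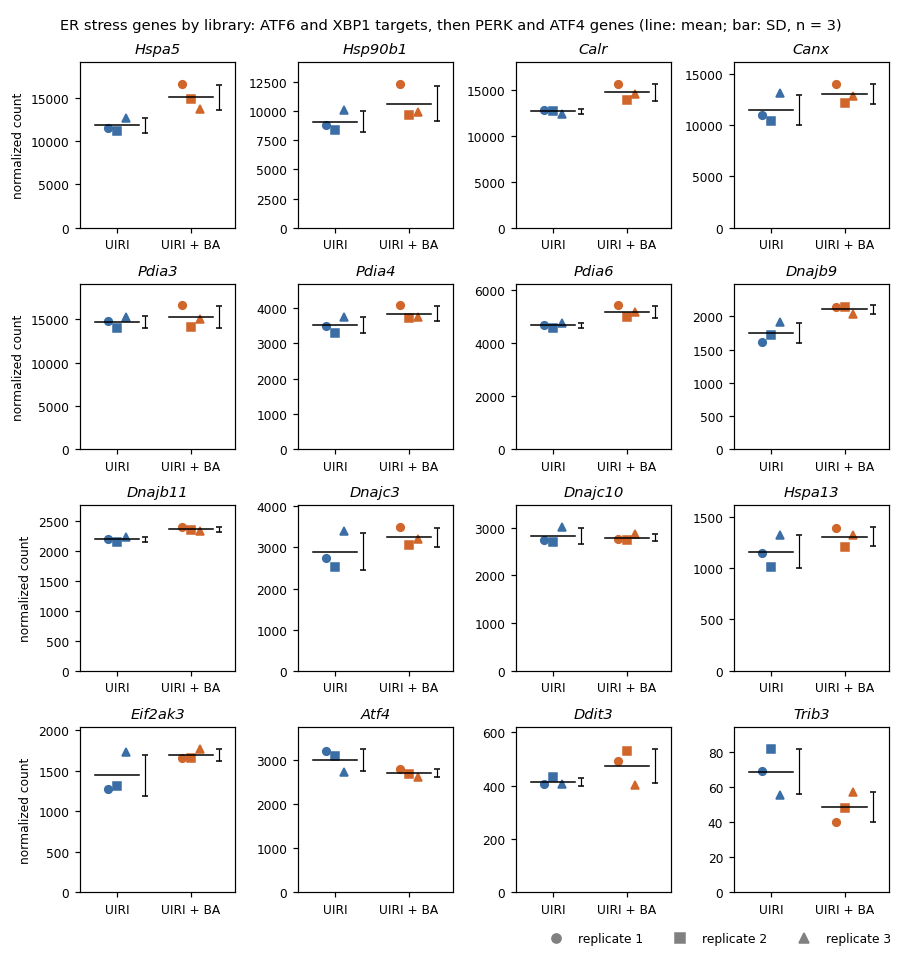
Normalized count (y axis, from 0) of the 12 ATF6 and XBP1 targets and of the 4 PERK and ATF4 genes in the 3 UIRI and 3 UIRI + BA libraries, with the symbol showing the replicate number, a line at the mean and a bar for the SD. UIRI + BA replicate 1 (circle) is highest in 11 of the first 12 panels. Of these 12, UIRI replicate 3 (triangle) is inside the treated range in Canx, Dnajc3, Hsp90b1, Hspa13, Pdia3 and Pdia4 and above it in Dnajc10. In Atf4 and Trib3, 2 of the 3 treated values lie below every UIRI value.

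Among the J proteins with other tasks, Dnajc22 (chr15:99093170-99104737, plus strand, GRCm38) had the smallest p of all members. It is a membrane-spanning J protein whose fly relative acts in clathrin-mediated uptake. It measured 428, 459 and 453 normalized counts in the vehicle libraries, in replicate order, against 676, 549 and 731 with BA. UIRI values lay close together and below every UIRI + BA value, and UIRI + BA replicate 3, not replicate 1, was highest. Means were 447 ± 16.4 against 652 ± 93.5 (SD, n = 3). The log2 fold change was 0.54 ± 0.12 (SE; 95% CI 0.27 to 0.80), with an adjusted p = 0.225 by limma and of 0.0139 by DESeq2. The log2 fold change was 0.50 without UIRI + BA replicate 1 and 0.55 without UIRI replicate 3.

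Dnajc12, a co-chaperone of the aromatic amino acid hydroxylases, had 393, 308 and 481 in UIRI against 511, 490.0 and 519.7 with BA. The treated values lay close to each other and above a wide UIRI spread, with a log2 fold change of 0.39 ± 0.15 SE (limma adjusted p = 0.448). It was 0.22 without UIRI replicate 2. Dnajc13, which acts in endosome sorting, had 1920.3, 2116 and 2343 in UIRI against 2675, 2340.2 and 2425 with BA, and UIRI replicate 3 and UIRI + BA replicate 2 were nearly equal (log2 fold change 0.22 ± 0.09 SE). Dnajc9, a J protein that chaperones histones, was the one member with groups apart in the lower direction. It had 989, 916 and 828 in UIRI against 773, 792 and 750.3 with BA, with a log2 fold change of -0.24 ± 0.09 (SE; 95% CI -0.44 to -0.04) and an adjusted p = 0.442 by limma. Dnajc8, a splicing-associated J protein and the most abundant of the 14 per kilobase, had 2435, 2410.4 and 2059.7 in UIRI against 1857, 2122 and 2079 with BA (log2 fold change -0.19 ± 0.09 SE), and Dnajc17, also tied to splicing, had a log2 fold change of -0.24 ± 0.17 SE, or -0.07 without UIRI + BA replicate 1.

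Of the cytosolic and nuclear class A and B J proteins, 8 of 11 had positive log2 fold changes. Dnaja2 was the most abundant per kilobase and had 3619, 3425 and 3201 in UIRI against 3308, 3687 and 3449.8 with BA (log2 fold change 0.03 ± 0.08 SE). Dnaja4 had the largest positive value, 0.34 ± 0.21 SE, with overlapping groups and 41.5% of its windows shared with Wdr61, and it was 0.13 without UIRI replicate 1. Dnajb13, an axonemal protein of cilia and sperm tails, had the largest negative value among those with a mean of at least 10, -0.11 ± 0.26 SE. Among the small heat shock proteins none had an unadjusted p below 0.05. Hspb8, which works with Bag3 in clearing aggregates, had 474, 486 and 479.7 in UIRI against 521, 534 and 536 with BA, apart between the groups but by a log2 fold change of only 0.14 ± 0.08 SE. Hspb2, a muscle-type small heat shock protein, had 53.2, 36.0 and 19.7 in UIRI against 18.8, 29.1 and 18.8 with BA and a log2 fold change of -0.61 ± 0.37 SE, with 18.4% of its windows shared with its neighbour Cryab. On 15 to 47 reads per library, it was -0.28 without UIRI replicate 1 and -0.98 without UIRI replicate 3. Of the 10 mitochondrial chaperones, 6 had positive and 4 negative values, and Dnajc30, a J protein of the mitochondrion, had the largest negative one, -0.26 ± 0.18 SE, with 21.6% of its windows shared with Bud23. It was -0.07 without UIRI + BA replicate 1.

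Genes of the same pathways that the symbol rule leaves out were read from lists of known partners. Of 30 measured genes of ER stress and ER-associated degradation, 21 had positive values, 5 with an unadjusted p below 0.05, and 1 negative one passed it. Over all genes, 48.9% had positive values, 5.67% were higher and 4.61% lower at that threshold, and the same shares apply to the other partner lists. Herpud1, a part of the degradation complex of the ER membrane, had 2387, 2425 and 2794 in UIRI against 3431, 3423 and 3258 with BA. Its groups were far apart, with a log2 fold change of 0.41 ± 0.08 SE and a limma adjusted p = 0.225. Creld2, a secreted ER stress protein, had a log2 fold change of 0.25. The others of these, named after their values were seen, were, by log2 fold change, Hyou1 (0.38), Manf (0.19) and Syvn1 (0.25), and the negative one was Erp29 (-0.27).

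Of 22 genes of the integrated stress response, 10 had positive and 12 negative values, and 2 negative ones had an unadjusted p below 0.05. The list holds ATF4 targets and also kinases that act before ATF4, such as Eif2ak4, so it does not read ATF4 activity alone. Nupr1, a nuclear stress protein, had 2718, 2364 and 2198 in UIRI against 1645, 1795 and 1803 with BA (log2 fold change -0.47 ± 0.09 SE, limma adjusted p = 0.225). Slc7a11, the cystine transporter, had 80.4, 79.9 and 90.9 in UIRI against 46.4, 53.8 and 52.2 with BA (log2 fold change -0.71 ± 0.16 SE, limma adjusted p = 0.255). In both, all treated libraries lay below all UIRI libraries. Of 26 co-chaperones, mitochondrial chaperones and proteases and heat shock factors, 17 had positive values and 4 of these had an unadjusted p below 0.05. The smallest p-values were those of the Hsp90 partner Fkbp5 (log2 fold change 0.37) and the mitochondrial Hsp90 Trap1 (0.21). All 8 subunits of the TRiC chaperonin, which folds actin and tubulin, had positive values with a median of 0.04, and 0 of them had an unadjusted p below 0.05 by limma. Tcp1 had a log2 fold change of 0.14 and Cct3 of 0.08.

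The list means show the same libraries. Relative to the UIRI mean, the HSF1 targets averaged -0.004, -0.09 and 0.09 on the log2 scale in the UIRI libraries, against 0.50, 0.21 and 0.24 with BA. The groups did not overlap. The ATF6 and XBP1 targets averaged -0.03, -0.08 and 0.11 against 0.26, 0.11 and 0.14, and UIRI replicate 3 lay just above UIRI + BA replicate 2. The PERK and ATF4 genes ranged within -0.10 and 0.06 with mixed order. Proximal tubule markers averaged 0.44 in UIRI replicate 3, against -0.28 and -0.17 in the other two UIRI libraries. In the treated libraries they averaged 0.66, 0.51 and 0.82, highest in replicate 3, while the HSF1 and ATF6 and XBP1 lists were highest in replicate 1. Immediate early genes, which rise with tissue handling, had 0 of 8 at an unadjusted p below 0.05 by limma, with summed counts of 8655 to 14148 in UIRI and 8130.2 to 12197 in UIRI + BA, and their lowest mean was in UIRI + BA replicate 1. The part of tissue handling or of cell content in the list means was not tested.

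**Figure D4:**
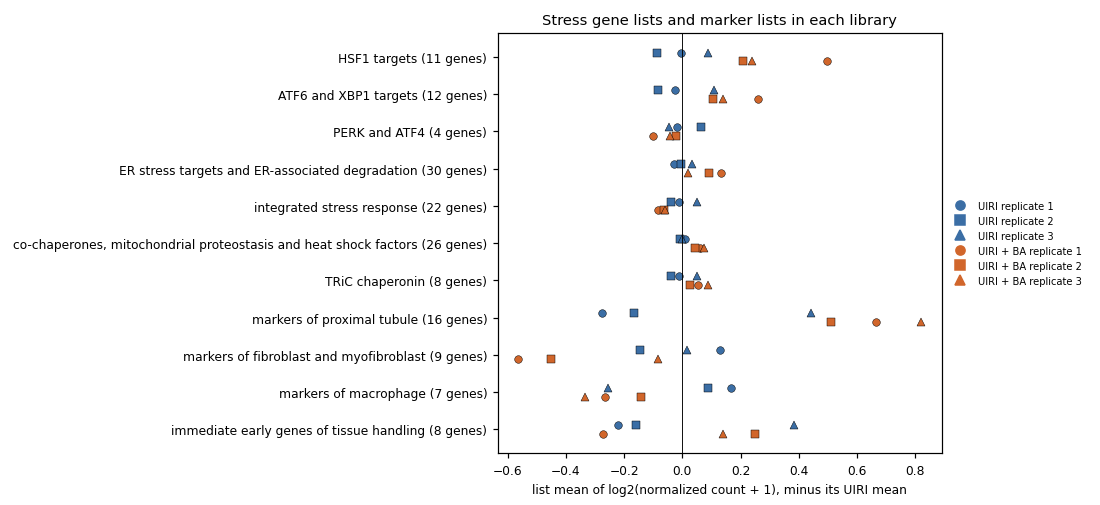
Mean over each list of log2(normalized count + 1), minus the mean of the 3 UIRI libraries (x axis), for 3 member lists, 4 partner lists and 4 marker lists (y axis); each point is 1 library. UIRI + BA replicate 1 (orange circle) is far to the right for the HSF1 targets at 0.50, and UIRI replicate 3 (blue triangle) lies apart from the other UIRI libraries for the proximal tubule markers at 0.44.

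Leaving out 1 library moved the members in opposite ways. Without UIRI replicate 3 the log2 fold change grew away from 0 for most members that passed the unadjusted threshold, as for Hspa5 (from 0.35 to 0.40), Hspd1 (from 0.35 to 0.49) and Dnajc12 (from 0.39 to 0.54). The 9 members then called by limma were Dnajb4, Dnajb9, Dnajc12, Dnajc22, Eif2ak3, Hspa5, Hspa9, Hspd1 and Hsph1. Without UIRI + BA replicate 1 it shrank for 9 of the 11 HSF1 targets, as for Hspa1a (from 0.52 to 0.24), Hsph1 (from 0.62 to 0.42) and Dnajb1 (from 0.33 to 0.20), and it grew for Hspb1 (from 0.14 to 0.28) and Hspe1 (from 0.11 to 0.14). Of the other targets, Hsp90aa1 went to 0.16 and Dnaja1 to 0.19, and outside the list Hspa4l went to 0.22. The 5 members that then still had an unadjusted p below 0.05 were Dnajb9, Dnajc22, Hspa5, Hspa8 and Hsph1. With either library left out, the median over all members stayed positive, at 0.12 and 0.06.

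**Figure D5:**
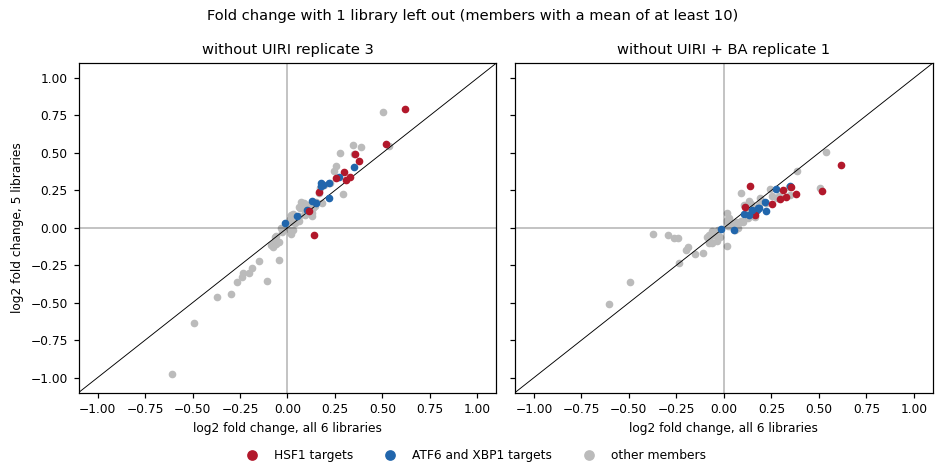
Log2 fold change of each member with a mean of at least 10 with all 6 libraries (x axis) against that without UIRI replicate 3 (left, y axis) or without UIRI + BA replicate 1 (right, y axis); the diagonal marks equal values. HSF1 targets (red) lie mostly on or above the diagonal on the left and mostly below it on the right, where Hsph1 goes from 0.62 to 0.42.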

How the data were processed

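The 6 renal cortex libraries, 3 UIRI and 3 UIRI + BA, were grouped by their labels. According to the methods, the authors used HISAT2 for alignment, FeatureCounts for counting and DESeq2 for their test; the reference build is not given in the sources used here, and the libraries are labelled strand-specific without the counting setting. The authors deposited for each gene and library a signal, namely the read count over 1 size factor per library: 100% of values gave whole reads within a tolerance of 0.1, although the methods name FPKM. The deposited log2 fold change and p-value columns and the Gene Ontology and KEGG tables, which hold the authors' own comparisons, were not used.

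limma 3.58.1 (R 4.3.3) was fitted to all 19176 rows on log2(value + 1) with an intensity trend and no covariate, with Benjamini-Hochberg adjustment over all rows. DESeq2 1.42.0 and edgeR 4.0.16 (filterByExpr, TMM) on recovered reads were alternatives. Further alternatives were a pseudocount of 0.1, a minimum of 1 in every library, upper quartile scaling, quantile normalization, a replicate block and each library left out in turn. For single values, the exact permutation test (two-sided) cannot go below 0.1. The study calls its replicates independent biological ones, and the labels do not say so. P-values measure the spread between these libraries, and no pair of libraries of the same group agreed within sampling noise. On simulated counts (dispersion 0.03) for this comparison over 19176 genes, limma recovered 10% of 100 genes changed by 0.5 on the log2 scale and 75% of 100 changed by 1, with 1 false call. The simulation used that dispersion for every gene and library, changed only genes above a minimum mean count and held no outlying library. Its recovery and false calls are therefore not those of these data.

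Members and lists were chosen with earlier results of these data known. Named members are the 10 given by full symbol, those with an unadjusted p below 0.05, the most abundant per kilobase and both extremes of each role list at a mean of at least 10, textbook readouts (Hspa1a, Hspa1b, Hspa5, Hsp90b1, Hspb1, Dnajb1) and the 2 smallest p of each partner list. Hspe1, Pdia6, Dnajb4 and Hspa9 were added after their values were seen, and further exceptions are stated. Positions, exon lengths and shared windows come from GENCODE M21 (GRCm38), where 85 of 87 members matched once. Coordinates are given on that build because the authors' build is not stated. Depth was 16510720 to 38124164 reads per library, so the number of mice limits precision for most members, and counting error adds to it for those with few reads.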

Additional observations from a re-analysis of the deposited data

How the results depend on the processing

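The count of members at an adjusted p below 0.05 was 0 under every scaling and filter, 2 by DESeq2, and 0 to 9 with 1 library left out. At an unadjusted p below 0.05 the count was 14 to 17 under the scalings, filters and tools (16.1% to 19.5%, against 7.88% to 10.4% of all genes). With 1 library left out it was 5 to 32 (5.75% to 36.8%, against 4.21% to 25.2% of all genes). Of these, 5 to 27 were higher (5.75% to 31.0%, against 2.61% to 13.7% of all genes) and 0 to 5 lower (0% to 5.75%, against 1.61% to 11.5%). The lower count was 1, with Trib3 lost, by quantile normalization, DESeq2, edgeR and the replicate block. Members with groups apart numbered 22 to 50 with 1 library left out (25.3% to 57.5%, against 18.2% to 45.4% of all genes), where fewer libraries have to separate. The members' median kept its sign throughout, at 0.0645 to 0.118. The replicate block gave 14 members at an unadjusted p below 0.05 and 0 at an adjusted one. Same-numbered libraries correlated at -0.24, 0.304 and 0.155 in their deviations from the group mean, and not every one correlated best with its own number. With 3 libraries per group, such values cannot tell whether same-numbered libraries share more than a number. Of 39 named genes, 31 kept their direction under every alternative. Hsf1 ran from -0.0992 to 0.0266, Atf6 from -0.0162 to 0.137, Hspb1 from -0.0464 to 0.277, Dnajb14 from -0.0849 to 0.0159, Dnajb13 from -0.357 to 0.154, Pdia3 from -0.0121 to 0.107, Ern1 from -0.123 to 0.0890 and Dnaja2 from -0.0173 to 0.0711 with 1 library left out. Ern1 was -0.0059 by upper quartile scaling and Dnaja2 -0.0050 by quantile normalization. The cause was not tested. Scaling moved the median of all genes by at most 0.02. Values of members with few reads, such as Trib3, are limited by counting error as well.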
